A study of Mus musculus with 12 samples.

Results

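The 54 genes described here encode the core machinery of autophagy. They were given as a list of symbols and run from the kinases that start the process to the receptors that pick its cargo and the factors that join the finished vesicle to the lysosome. All 54 were found among the 53801 genes of the count table, of which 26487 had a count in at least 1 library. For the description they were placed in 9 groups by textbook role, with 5 genes of initiation, 9 of membrane supply and lipid transfer, 8 of nucleation, 11 of conjugation, 5 of the LC3 and GABARAP family, 7 cargo receptors, 4 genes of mitophagy, 3 of fusion and 2 transcription factors.

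Autophagy encloses cytoplasm in a double membrane, the autophagosome, which fuses with the lysosome so that its contents are degraded. The kinases ULK1 and ULK2 start the process, the class III phosphoinositide 3-kinase with BECN1 marks the growing membrane, and the ATG12-ATG5-ATG16L1 complex attaches the small proteins of the LC3 and GABARAP family to its lipid. Without ATG5 this attachment does not take place. Eosinophils are short-lived granulocytes that mature in the bone marrow under interleukin 5 and leave it for the blood.

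Eosinophils were isolated from the bone marrow and the blood of Atg5flox/flox eoCre Il5tg mice, called Atg5-knockout here, and of eoCre Il5tg mice as control, with 3 libraries for each of the 4 groups. Every animal carried the Cre recombinase as a knock-in at the eosinophil peroxidase gene and an Il5 transgene driven by the T cell promoter of Cd3d, so the controls also have raised interleukin 5 and the same Cre allele, and Atg5 can be deleted only where eosinophil peroxidase is expressed. Marrow cells were depleted of other cells with antibodies to surface markers, among them CD8α, CD90.2 and Ly6G, and blood cells went through the same depletion after a density gradient and lysis of red cells with water, so tissue and isolation cannot be told apart. The age of these mice is not given in the sources used here. The comparisons ask whether transcripts of the remaining machinery differ where Atg5 is deleted, and how they differ between marrow and blood.

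Between 18885052 and 30270166 reads were counted on genes per library, and 53 of the 54 members had a count in every library. The 10 eosinophil genes that served as markers, among them Epx, Prg2, Siglecf and Ccr3, were detected in every group and took 8.04 to 10.2% of counts in marrow but 1.8 to 4.05% in blood. The 10 genes of dividing cells took 0.157 to 0.176% in control marrow, 0.182 to 0.227% in Atg5-knockout marrow and 0.00442 to 0.0116% in blood. Every knockout marrow library thus lay above every control marrow library in this share. Its part in the marrow comparison of genotypes was not tested. The 10 neutrophil genes took 2.22 to 3.17% in marrow and 1.18 to 2.11% in blood. The 10 genes of monocytes and macrophages took 0.145 to 0.223% over both tissues. The 12 platelet genes took 0.0378 to 0.0479% in control marrow and 0.0419 to 0.0442% in knockout marrow. In blood they took 0.04 to 0.0628% in control and 0.0301 to 0.0302% in the knockout, so the genotypes did not overlap there. The library of control blood replicate 1 stood apart with 14.6% of its counts on the 12 red cell genes analysed, against 0.138 to 1.42% in the other 11. Atg5-knockout blood replicate 1 held the largest shares of the 8 B cell genes, at 0.229%, and of the 8 T cell genes, at 0.0227%. In bulk RNA, fewer cells of a type and less RNA per cell cannot be told apart. The paper assessed the purity of the isolated cells by flow cytometry and cytospin. It reports eosinophils as the large majority of cells in both the marrow and the blood preparations.

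Together the 54 genes took a small share of the transcriptome in each tissue. They held 0.327 to 0.331% of counts in control marrow, 0.318 to 0.325% in Atg5-knockout marrow, 0.414 to 0.451% in control blood and 0.42 to 0.432% in Atg5-knockout blood. The lowest blood library thus lay above the highest marrow library, and within marrow every knockout library lay below every control library. Gabarap, Sqstm1 and Map1lc3b supplied 19.1, 9.4 and 7.52% of all member counts. These 3 genes took 0.0901 to 0.108% of counts over the marrow libraries and 0.134 to 0.202% over the blood libraries. The other 51 genes held 0.218 to 0.231% in marrow and 0.245 to 0.28% in blood.

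Per kilobase of exon, the members spanned a wide range of levels, given here as RPKM, reads scaled to exon length and library size. Gabarap, whose protein is bound to the autophagosome membrane, had the highest level with a mean of 401 RPKM over the 12 libraries, and Sqstm1, which encodes the cargo receptor p62, followed at 110. Pink1, the kinase that marks damaged mitochondria, stood at 47.3, Map1lc3b at 40.1, the mitophagy receptor Bnip3l at 39.7 and the conjugating enzyme Atg3 at 37.5. The lowest were Atg9b, the paralog of the lipid scramblase gene Atg9a, at 0.227, and Atg14, the subunit that directs the class III kinase to autophagy, at 0.824. Atg5 itself ranked 12th with 18. Becn1 led the nucleation genes at 12.7, Atg101 the initiation genes at 22.8, Vmp1 the membrane genes at 10.6, Tfeb the transcription factors at 15.2 and Epg5 the fusion genes at 3.22, while the lowest of each role were Rb1cc1 at 3.16, Atg16l2 at 1.32, Gabarapl1 at 8.39, Optn at 1.35, Bnip3 at 6.65, Tecpr1 at 1.64 and Tfe3 at 4.14. These values used the exon length of the count table. With the longest annotated transcript instead, Gabarap kept rank 1 and Sqstm1 rank 2, and Gabarapl1 moved from rank 24 to 33. Other places moved with that length. Tecpr1 became the highest fusion gene at 3.66, above Epg5 at 3.21, Ulk2 at 4.68 took the lowest place in initiation from Rb1cc1 at 6.07, and Atg4c at 0.602 took that of Atg16l2 in conjugation. Tax1bp1 moved from rank 8 to 4, Pink1 from 3 to 5 and Atg12 from 10 to 23, and Map1lc3b stood at 72.9 RPKM.

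**Figure D1:**
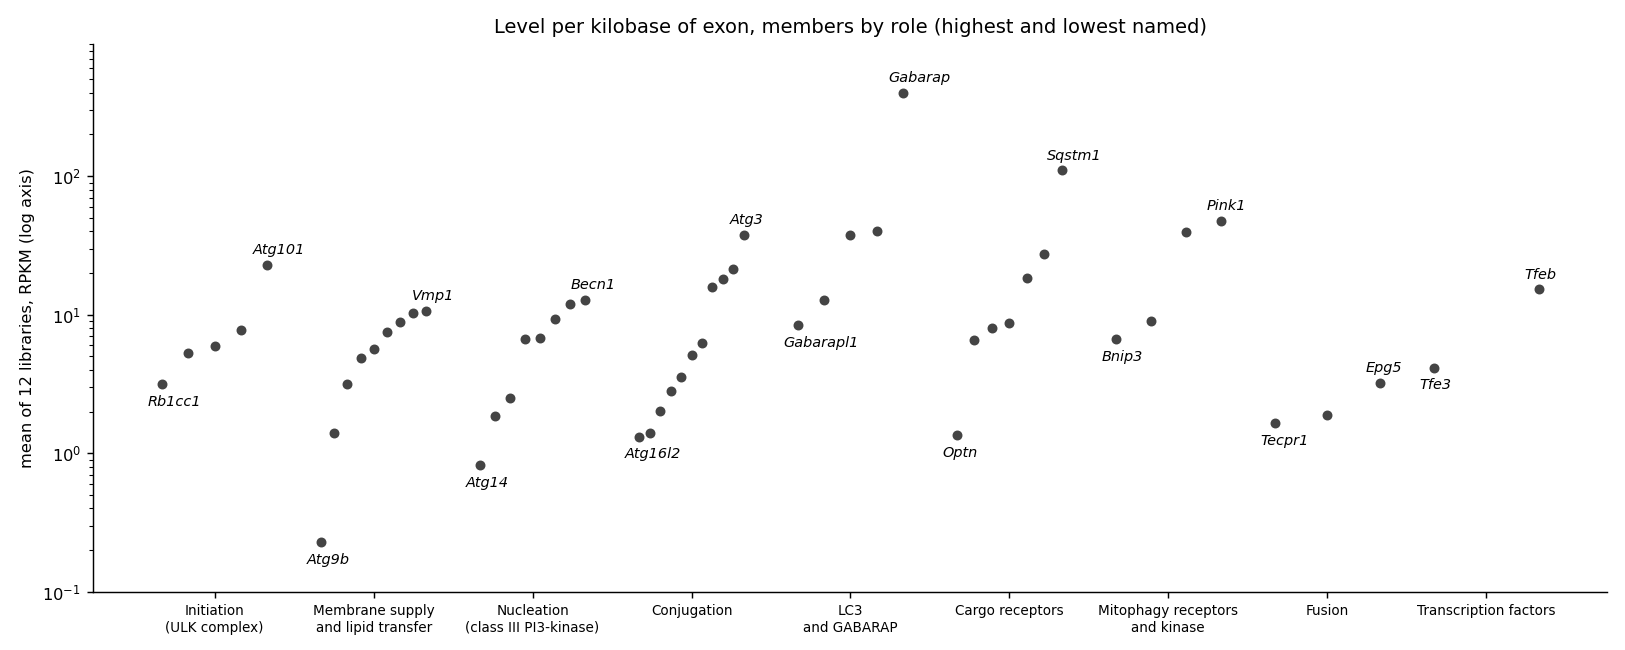
Mean level of each of the 54 genes over the 12 libraries, in RPKM on a log axis, by role, with 1 point per gene and the highest and lowest gene of each role named. Gabarap stands alone at 401 RPKM and Atg9b lies lowest at 0.227.

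Atg5 was measured in every library first, since it is the gene deleted in the knockout. Its gene lies on chromosome 10 at chr10:44268358-44364291 on the plus strand (GRCm38), and its counts sum all exons, so they cannot show the loss of part of the gene. In marrow, levels of Atg5 in CPM, counts scaled to library size, were 42.2, 44.8 and 41.4 in the control libraries and 31, 32 and 34.5 in the Atg5-knockout libraries. The ranges did not overlap, and the log2 fold change was -0.44 (SE 0.11, 95% interval -0.67 to -0.21), the lowest p of the members in this comparison. With edgeR's quasi-likelihood test over 13781 genes its adjusted p was 0.157, so it did not pass the threshold of 0.05. It passed with DESeq2 on the same 6 libraries, at an adjusted p of 0.0317, and without the filter on low counts, at 0.0402, and over all alternatives its adjusted p ran up to 1.

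In blood, Atg5 stood at 44, 58.9 and 40 CPM in control and at 36, 52.2 and 51 in Atg5-knockout libraries. The groups overlapped, and the log2 fold change was -0.01 (SE 0.22, 95% interval -0.52 to 0.50, edgeR adjusted p = 1). As in marrow, counts over all exons cannot show the loss of part of the gene. The paper examined Atg5 by quantitative PCR and ATG5 protein by immunoblot in eosinophils of both tissues. It cites earlier work of its authors that Atg5-knockout eosinophils lack autophagy. Knockout replicate 1 was the lowest of the 6 and also the library with the most B and T cell RNA, whose part in the value was not tested. Between tissues, Atg5 was higher in blood than in marrow in the knockout, by 0.58 (SE 0.16, edgeR adjusted p = 0.0166), and not called in control, where the log2 fold change was 0.17 (SE 0.18, adjusted p = 0.511). The knockout call was lost without knockout blood replicate 2 or without knockout marrow replicate 1 or 2, at an adjusted p of 0.0605 to 0.0749, and with library size alone as the scaling, at 0.0779.

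The partners of ATG5 in conjugation showed no called difference between genotypes. Atg12, whose protein is joined to ATG5, stood at 46.7 ± 2.09 CPM (SD, n = 3) in control and 50.8 ± 1.9 in Atg5-knockout marrow. In blood it stood at 42, 55.7 and 61.8 in control and 48.8, 69.8 and 69.2 in the knockout. Atg16l1, the third member of that complex, stood at 25.9 ± 2.02 and 26.6 ± 1.82 in marrow. In blood, its control libraries held 29.2, 27.4 and 38.9 CPM and its knockout libraries 24.4, 20.5 and 24.8, so all knockout libraries lay below all controls with a log2 fold change of -0.42 (SE 0.21, edgeR adjusted p = 1).

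Atg7, the activating enzyme at the head of both conjugation pathways, was the only member whose knockout libraries lay below every control in both tissues. It was 90.9, 89.2 and 85.9 CPM in control and 77.2, 78.5 and 83.8 in Atg5-knockout marrow, and 148, 147 and 139 against 121, 136 and 135 in blood. The differences were small, with log2 fold changes of -0.19 (SE 0.10, edgeR adjusted p = 0.562) and -0.12 (SE 0.16, adjusted p = 1). Of all genes tested, 14.5% separated the genotypes in marrow and 7.54% in blood, in either direction. The share that did so in both tissues was not counted. Atg3, which transfers LC3 to lipid, had log2 fold changes of -0.19 (SE 0.11) in marrow and 0.24 (SE 0.19) in blood, and Atg10, which joins ATG12 to ATG5 and was counted at 38 reads in its lowest library, had 0.11 (SE 0.20) and 0.12 (SE 0.41). None of these passed the test.

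In blood, libraries of the same number deviated together, though no label pairs them. Replicate 1 of each group also stood apart, in red cell RNA or in B and T cell RNA, whose part in this was not tested. The genotypes are set side by side within each number as a description. Atg12 was higher in the knockout in 3 of 3 pairs, with a log2 fold change of 0.26 (SE 0.14, edgeR adjusted p = 0.711) with the replicate number as a block. Atg3, at 109, 138 and 99.4 CPM in control and 119, 141 and 142 in the knockout, was higher in 3 of 3 (0.25, SE 0.16, adjusted p = 0.766), and so was Atg16l2 (0.50, SE 0.21, adjusted p = 0.657). Atg16l1 and Atg7 were lower in 3 of 3 (-0.41, SE 0.17, adjusted p = 0.638, and -0.12, SE 0.14, adjusted p = 0.881). Counted after these values were seen, 6 of the 53 members tested in blood were higher in every pair (11.3%) and 16 lower (30.2%), beside 14.5% and 16.1% of all genes tested, and none was called with the block.

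**Figure D2:**
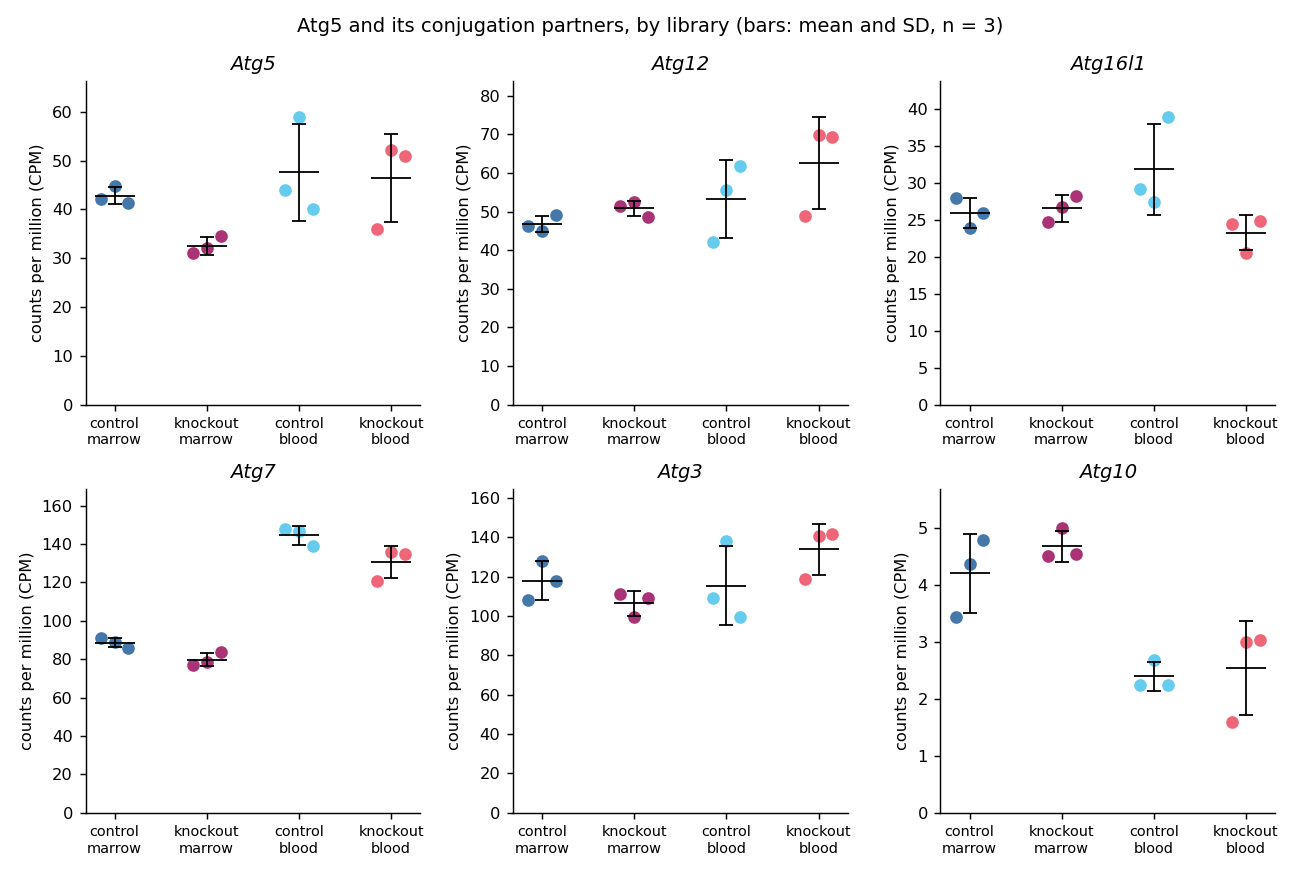
Level of Atg5 and of 5 conjugation partners in each library, in CPM, with 1 point per library and the mean and SD of 3 libraries per group. Atg5 separates the genotypes in marrow (31 to 34.5 against 41.4 to 44.8) and not in blood, and Atg7 is higher in blood than in marrow in both genotypes.

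The promoters of 45 members were in the RefSeq table used (GRCm38.p6, 250 bases before to 50 after the start of the gene). They were searched for letters that the transcription factors TFEB and TFE3, both members of the list, are known to bind. CACGTG, which reads the same on both strands, was found in 7 of the 45, namely Atg14, Nrbf2, Rubcn, Atg5, Atg7, Atg3 and Bnip3 (15.6%), and in 8.09% of the 27025 genes of the table. The longer TCACGTGA, which contains it, was found in Nrbf2 and Atg3 (4.44%) and in 1.12% of all genes. The windows of 30 bases below are shown because 3 of the 7 genes, Atg5, Atg7 and Atg3, act in the step that the knockout removes, and Nrbf2, a subunit of the class III kinase, holds the longer form. Each is written on the strand of its gene, with CACGTG in capitals.
Atg5, chr10:44268313-44268342, plus strand: cggagcgcttgcCACGTGgtcttggtgacg
Atg7, chr6:114670952-114670981, plus strand: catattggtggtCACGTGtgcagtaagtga
Atg3, chr16:45158723-45158752, plus strand: gcctccttttgtCACGTGtcctgggagagt
Atg3, chr16:45158746-45158775, plus strand: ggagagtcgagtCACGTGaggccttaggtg
Nrbf2, chr10:67285472-67285501, minus strand: gacccggctcatCACGTGacagccgccgcc

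The first base of the capitals lies at -14 for Atg5, -132 for Atg7, -94 and -71 for Atg3 and -208 for Nrbf2, counted from the start that RefSeq gives, which need not be the one used in eosinophils. For Atg7 that start lies inside the gene as the count table spans it, chr6:114643097-114860614. All letters were searched on both strands. TGACNNNGC, the antioxidant response element, were found in 7 members (15.6%) against 14% of all genes, Map1lc3b among them, and GTAAACA, a motif of FOXO factors, was found in 0 of the 45 against 4.05%. Of the 13 members in the table that were higher in blood in both genotypes, described below, 1 held CACGTG, Atg7. A match describes letters in a window and not a bound site.

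In marrow, 0 of the 54 members were called between genotypes at an adjusted p under 0.05 (edgeR), against a background of 0.145% of all genes tested called higher in the knockout and 0.203% called lower. At an unadjusted p under 0.05 there were 3 of 54, Atg5, Pink1 and Optn, beside 1333 of 13781 genes. The median log2 fold change of the members was 0.04, beside 0.00 over all genes, and single members ran from -0.44 for Atg5 to 0.59 for Optn. The 95% interval lay within 1 log2 unit of zero for 53 of 54, with a median half-width of 0.25.

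Pink1 stood at 88.7, 91.1 and 99.2 CPM in control marrow and at 80.2, 71.7 and 73.3 in Atg5-knockout marrow. The ranges did not overlap, with a log2 fold change of -0.35 (SE 0.10, edgeR adjusted p = 0.244). Optn, a cargo receptor for bacteria and mitochondria, was the member with the largest value, at 5.49, 4.23 and 7.1 CPM in control and 7.23, 9.74 and 9.07 in the knockout (log2 fold change 0.59, SE 0.20, adjusted p = 0.353). Its lowest knockout library lay just above the highest control.

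Knockout and control libraries did not overlap in marrow for 10 of the 54 members (18.5%), against 14.5% of all genes tested. Those above control were Wipi1, Nrbf2, Atg4d, Gabarapl2, Optn and Epg5, and those below were Atg5, Atg7, Gabarap and Pink1. Gabarap, for example, stood at 547, 584 and 550 CPM in control and 517, 448 and 526 in knockout marrow, a log2 fold change of -0.21 (SE 0.11, edgeR adjusted p = 0.568). Of the rest of its family, Map1lc3a had -0.29 (SE 0.18), Map1lc3b -0.14 (SE 0.10), Gabarapl1 0.18 (SE 0.15) and Gabarapl2 0.05 (SE 0.10), none of them called.

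In blood, 0 of the 53 members tested were called between genotypes, against 0.0371% of all genes called higher and 0% called lower, and 0 of the 53 reached an unadjusted p under 0.05 (edgeR), beside 347 of 13460 genes. DESeq2 on the same libraries also called 0 members. Atg9b was too low to be tested. The median log2 fold change was -0.09, beside 0.01 over all genes, and single members ran from -0.66 for Bnip3l to 0.47 for Atg16l2, a paralog of Atg16l1. Libraries varied more than in marrow, and the 95% interval lay within 1 log2 unit of zero for 43 of 53, with a median half-width of 0.48, and reached beyond that size for the other 10.

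Wipi1, Pink1 and Vmp1 had the lowest p in blood. Wipi1, which binds the lipid made by the class III kinase, stood at 41.2, 40.8 and 43.5 CPM in control and 27, 31.1 and 35.3 in knockout blood (log2 fold change -0.40, SE 0.18, edgeR adjusted p = 1). All knockout libraries lay below all controls. Pink1 stood at 149, 202 and 238 CPM in control and 126, 148 and 151 in knockout blood, where the groups overlapped by a narrow margin (-0.44, SE 0.20). Vmp1, a membrane protein that helps lipid reach the growing autophagosome, stood at 39.4, 37.8 and 40.3 CPM in control and 47.4, 48.6 and 47.7 in knockout blood, the single member with every knockout library above control (0.32, SE 0.16).

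In the library rich in red cell RNA, several members stood apart from the other blood libraries. Bnip3l stood at 410 CPM in control blood replicate 1 and at 144 and 161 in the other control libraries, against 130, 146 and 169 in knockout blood. Ncoa4 stood at 111 CPM there, against 50 and 50.8 in the other controls and 46.5, 49.6 and 40.3 in knockout blood, and Atg9a at 28.7, against 12.8 and 10.7 in the other controls and 17.6, 11.4 and 10.1 in knockout blood. BNIP3L is known for clearing mitochondria from maturing red cells, and the 14.6% of red cell counts stood in the same library. The blood-to-marrow log2 fold change of Bnip3l in control was 1.07 (SE 0.37, edgeR adjusted p = 0.0541) with that library and 0.41 (SE 0.14, adjusted p = 0.0402) without it. In control marrow, Ncoa4 and Atg9a were also highest in replicate 1, where red cell genes took 0.138% of counts. Ncoa4 stood there at 90.1 CPM, against 31.6 and 54.7 in the other control marrow libraries, and Atg9a at 29.8, against 9.4 and 16.2. Bnip3l stood at 110, 111 and 124 CPM in control marrow. The part of red cell RNA in these values was not tested.

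Knockout and control libraries did not overlap in blood for 9 of 53 members (17%), against 7.54% of all genes. Vmp1 lay above control, and Wipi1, Becn1, Atg16l1, Atg7, Calcoco1, Ncoa4, Tollip and Epg5 lay below. In the LC3 and GABARAP family the log2 fold changes were 0.05 (SE 0.23) for Map1lc3a, 0.00 (SE 0.18) for Map1lc3b, -0.11 (SE 0.26) for Gabarap, -0.31 (SE 0.24) for Gabarapl1 and -0.33 (SE 0.21) for Gabarapl2. All 5 genes overlapped between genotypes, and none was called.

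**Figure D3:**
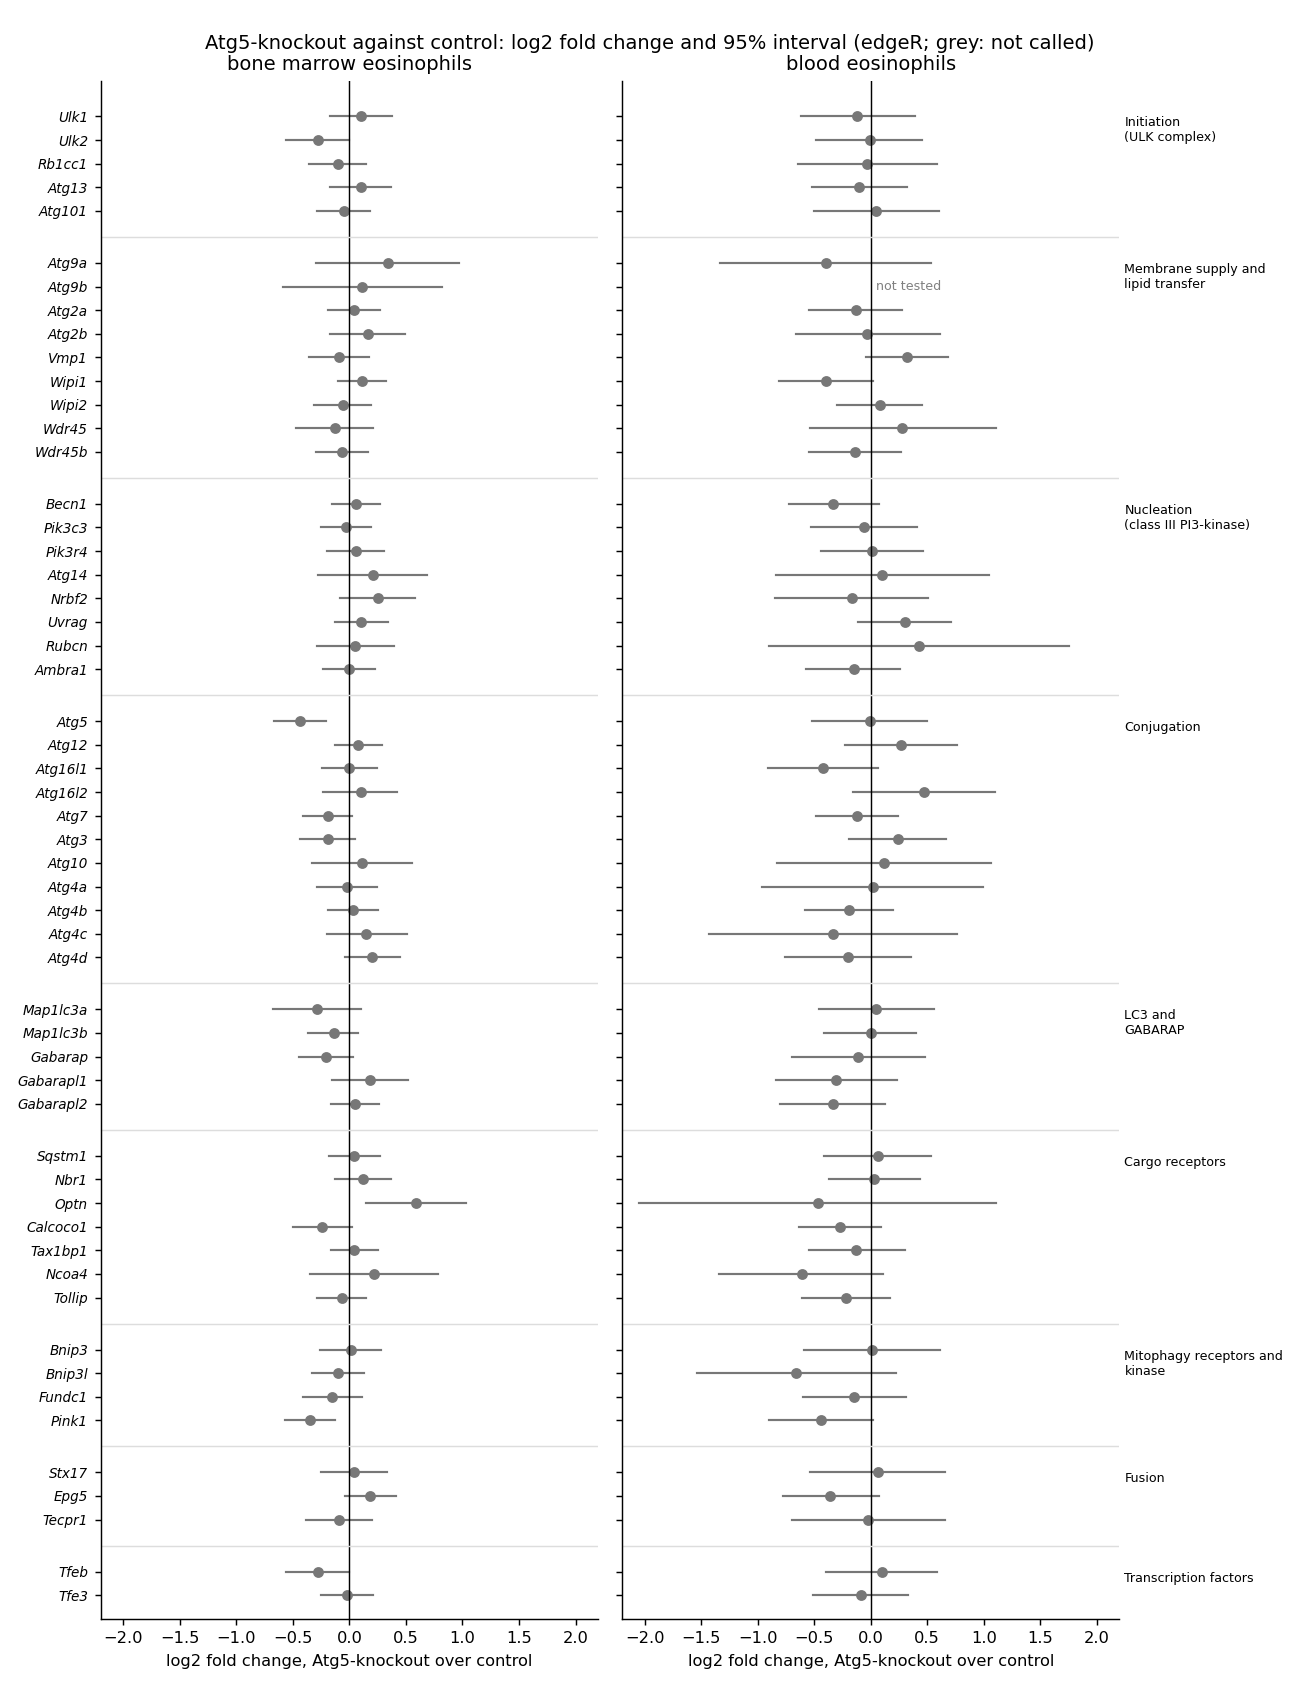
Log2 fold change of each member between Atg5-knockout and control, in marrow on the left and blood on the right, with 95% intervals from edgeR and members ordered by role. No member is called in either tissue, and intervals are wider in blood, with a median half-width of 0.48 against 0.25.

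Whether the knockout and control differed by another amount in blood than in marrow was tested as an interaction over all 12 libraries, and 0 of the 54 members passed, with a background of 0% over 14712 genes. The 3 members of lowest p were Epg5, Wipi1 and Becn1, each with an unadjusted p under 0.05. Epg5, a tether between autophagosome and lysosome, stood at 30.8, 28.4 and 33.5 CPM in control and 35.5, 36.3 and 36.3 in knockout marrow, and at 36, 31 and 30.7 against 25.5, 27 and 22.4 in blood. It thus lay above control in every knockout library of marrow and below control in every knockout library of blood, with an interaction of -0.59 on the log2 scale (SE 0.19, edgeR adjusted p = 0.866). Wipi1 had the same arrangement, with marrow values of 40, 38.3 and 41.6 CPM in control and 44.9, 45.1 and 43.2 in the knockout, and an interaction of -0.56 (SE 0.18, adjusted p = 0.87). For Becn1 the interaction was -0.44 (SE 0.18, adjusted p = 0.942). Neither direction was called by itself for any of these genes. The share of all genes with the arrangement of Epg5 and Wipi1 was not counted.

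The tissues differed far more than the genotypes. In control mice, 16 of the 54 members (29.6%) were higher in blood than in marrow, against 16.2% of all genes tested, and 4 (7.41%) were lower, against 18%. In Atg5-knockout mice, 25 (46.3%) were higher, against 23.5%, and 10 (18.5%) were lower, against 24.1% (edgeR, adjusted p under 0.05). The median log2 fold change of the members was 0.30 in control and 0.21 in knockout mice, beside 0.00 and -0.01 over all genes. Single libraries moved these counts. In control, leaving out marrow replicate 3 gave 10 higher and 1 lower, leaving out marrow replicate 1 gave 0 lower, leaving out marrow replicate 2 or blood replicate 2 or 3 gave 2 lower, and in the knockout leaving out marrow replicate 1, 2 or 3 gave 14, 15 or 18 higher and 7, 5 or 5 lower.

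The size of these medians rests on the scaling. With library size alone in place of TMM factors, the median of all genes moved to -0.31 in control and -0.24 in knockout mice, the members moved with it to -0.01 and -0.02, and the calls became 9 higher and 5 lower in control and 14 and 12 in the knockout. Library size alone ended the calls of Ulk1, Becn1, Pik3c3, Pik3r4, Atg7, Gabarap and Tax1bp1 in control and added Atg10. In the knockout it ended those of Ulk1, Ulk2, Vmp1, Wipi2, Wdr45b, Becn1, Pik3r4, Atg5, Atg3, Tax1bp1 and Bnip3l. It added Atg10 and Atg4d there. Fits on 12 libraries with DESeq2 or edgeR ended the knockout calls of Ulk2, Atg9a, Atg4a, Ncoa4 and Bnip3l and also added Atg10 and Atg4d. With edgeR, Becn1 and Atg3 were lost too. All tissue values below use TMM, and the eosinophil and dividing cell genes given above moved with the same comparison, whose part in it was not tested.

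All 16 members called higher in control were also called higher in the knockout, where they made up 64% of the calls. They were Ulk1, Atg2a, Becn1, Pik3c3, Pik3r4, Uvrag, Atg7, Map1lc3a, Map1lc3b, Gabarap, Gabarapl2, Sqstm1, Calcoco1, Tax1bp1, Pink1 and Tecpr1. All 4 members called lower in control, Atg101, Atg9b, Atg4c and Bnip3, were also called lower in the knockout, where they made up 40% of the calls. Of the rest, 9 were called higher in the knockout alone (Ulk2, Vmp1, Wipi2, Wdr45, Wdr45b, Atg5, Atg3, Bnip3l and Tfeb), 6 were called lower there alone (Atg9a, Wipi1, Atg4a, Optn, Ncoa4 and Epg5), and 19 were called in neither. No member passed the interaction, so these 15 are not shown to differ between genotypes.

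**Figure D4:**
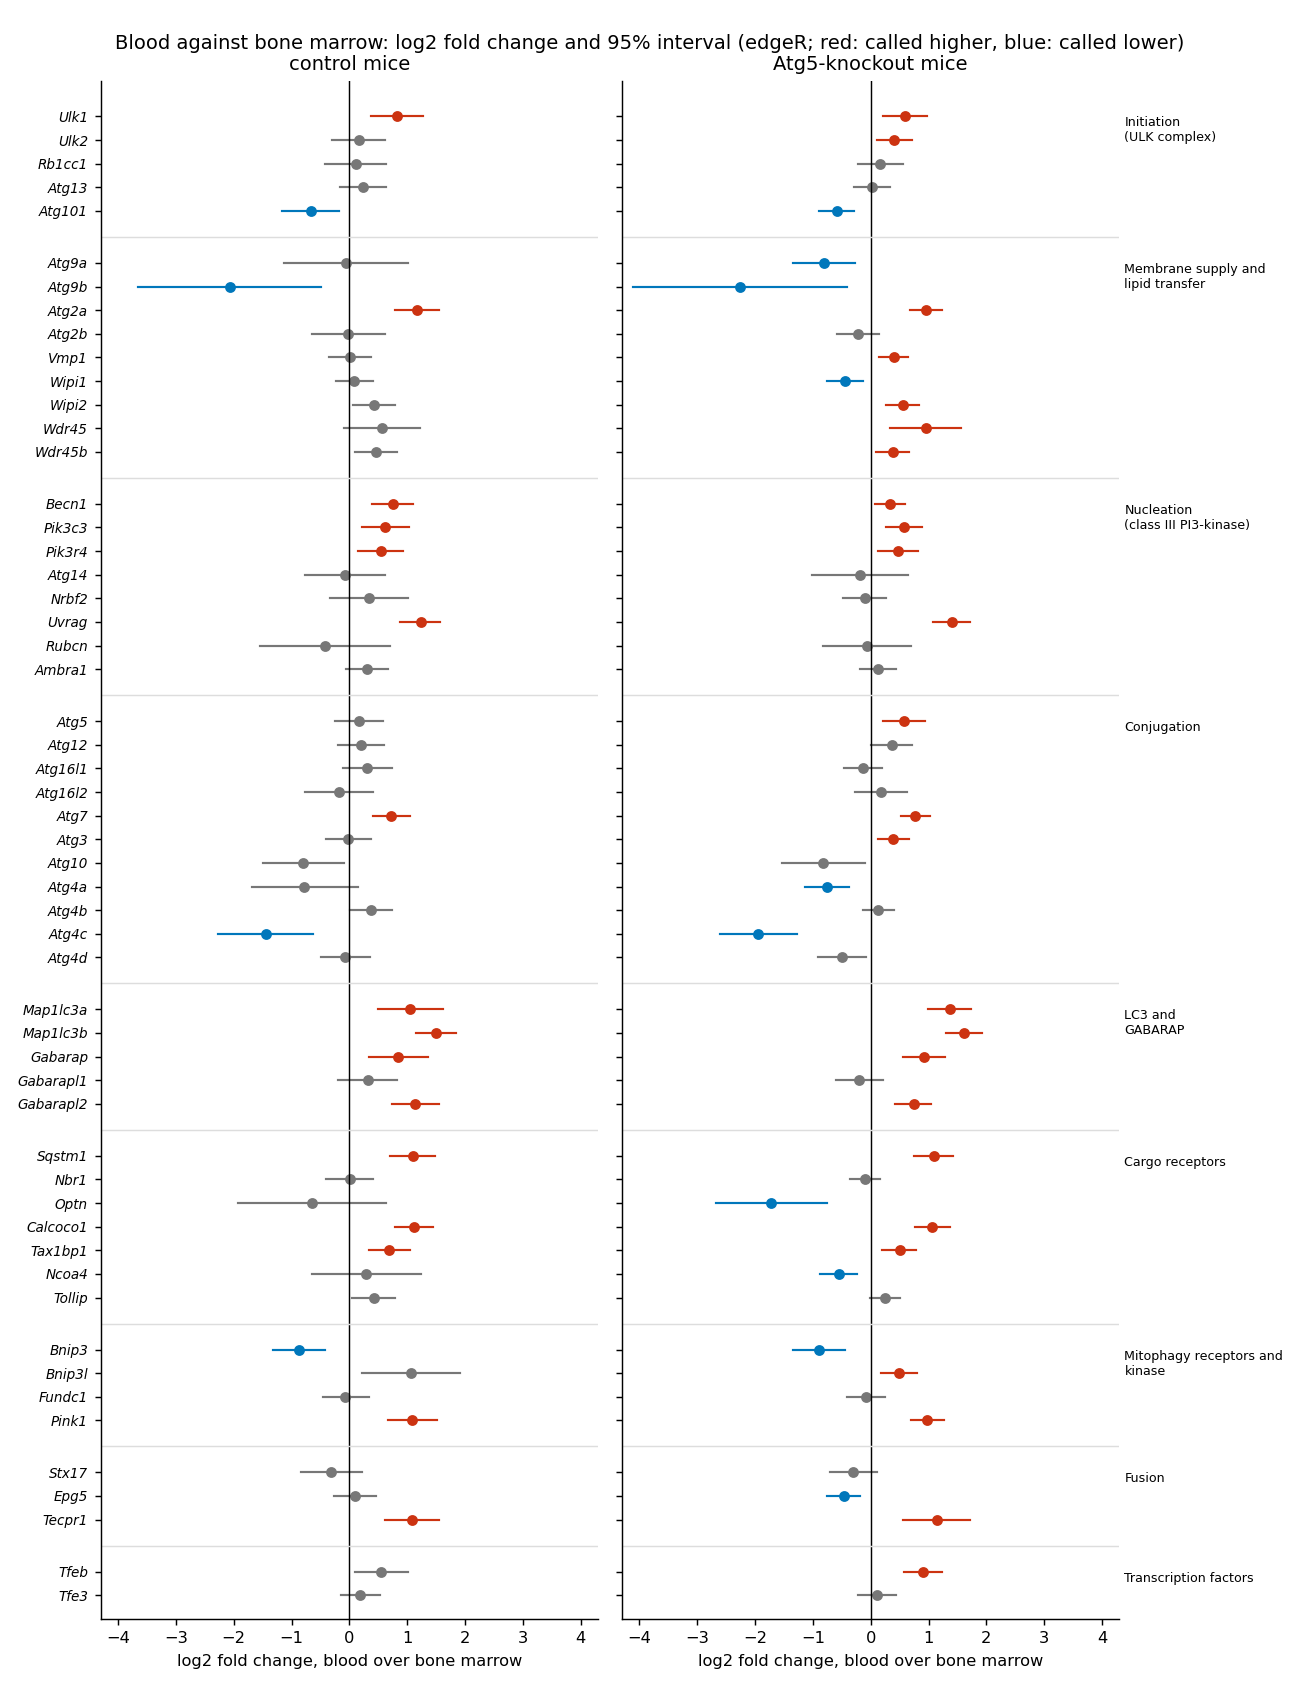
Log2 fold change of each member between blood and marrow, in control mice on the left and Atg5-knockout mice on the right, with 95% intervals from edgeR and members ordered by role. Red marks members called higher in blood (16 and 25) and blue members called lower (4 and 10).

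The LC3 and GABARAP family had the largest median log2 fold change of the 9 roles, 1.05 in control and 0.92 in knockout mice. Of its 5 genes, 4 were called higher in blood in both genotypes. Map1lc3b, the most used marker of autophagosomes, was the largest increase of all members. Its gene lies at chr8:121590361-121598760 on the plus strand (GRCm38).

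Map1lc3b stood at 169, 163 and 154 CPM in control marrow and at 411, 449 and 497 in control blood, and at 151, 141 and 160 in knockout marrow and 387, 447 and 489 in knockout blood. Every blood library lay above every marrow library, with log2 fold changes of 1.50 (SE 0.15, edgeR adjusted p = 0.000188) and 1.61 (SE 0.13, adjusted p = 2.99e-05). Map1lc3a, its less abundant paralog, rose from 8.37, 12.3 and 9.6 CPM to 16.3, 20.2 and 25.6 in control mice (1.05, SE 0.25, adjusted p = 0.0112) and from 7.99, 8.36 and 9.19 to 21.7, 19.5 and 21.7 in the knockout (1.37, SE 0.16, adjusted p = 0.000229). Its call in control was lost without marrow replicate 1 or 3, at an adjusted p of 0.0558 and 0.0629.

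Gabarap, at chr11:69991143-69994951 on the plus strand, rose from 547, 584 and 550 CPM to 670, 1064 and 1256 in control mice, where control blood replicate 1 was the low one. The log2 fold change was 0.84 (SE 0.23, edgeR adjusted p = 0.0204), and the call was lost without any of the 5 libraries other than that one, at an adjusted p of 0.0528 to 0.0941. In the knockout it rose from 517, 448 and 526 to 720, 990 and 997 (0.92, SE 0.16, adjusted p = 0.00158). Gabarapl2 rose from 60.7, 57.1 and 57.4 to 154, 112 and 116 in control (1.14, SE 0.18, adjusted p = 0.00161) and from 64.4, 60.9 and 61.7 to 84.4, 118 and 96.1 in the knockout (0.74, SE 0.14, adjusted p = 0.00248). Blood and marrow did not overlap for either gene.

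Gabarapl1 was the exception. It had 15.5 ± 2.43 CPM in control marrow, 18 ± 3.13 in knockout marrow, 19 ± 3.91 in control blood and 15.1 ± 1.37 in knockout blood (SD, n = 3), with no call in either genotype (0.32, SE 0.22, and -0.20, SE 0.18). Of its exon bases 28.3% are shared with a gene on the other strand and strand was not used in counting, so its level is less certain than that of its paralogs.

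Per length, Gabarap made up most of the family in every group, with 82.8 ± 0.613% of its RPKM in control marrow, 81 ± 1.31% in knockout marrow, 78.3 ± 6.05% in control blood and 79.3 ± 1.54% in knockout blood. The share of Map1lc3b was 5.88 ± 0.304% and 6.03 ± 0.154% in marrow and 9.04 ± 1.47% and 9.59 ± 0.682% in blood, in the same order. Its lowest blood library, at 7.99%, lay above its highest marrow library, at 6.23%. These shares rest on the exon length of the count table. With the longest annotated transcript the mean level of Map1lc3b was 72.9 RPKM instead of 40.1, and shares were not computed with that length.

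**Figure D5:**
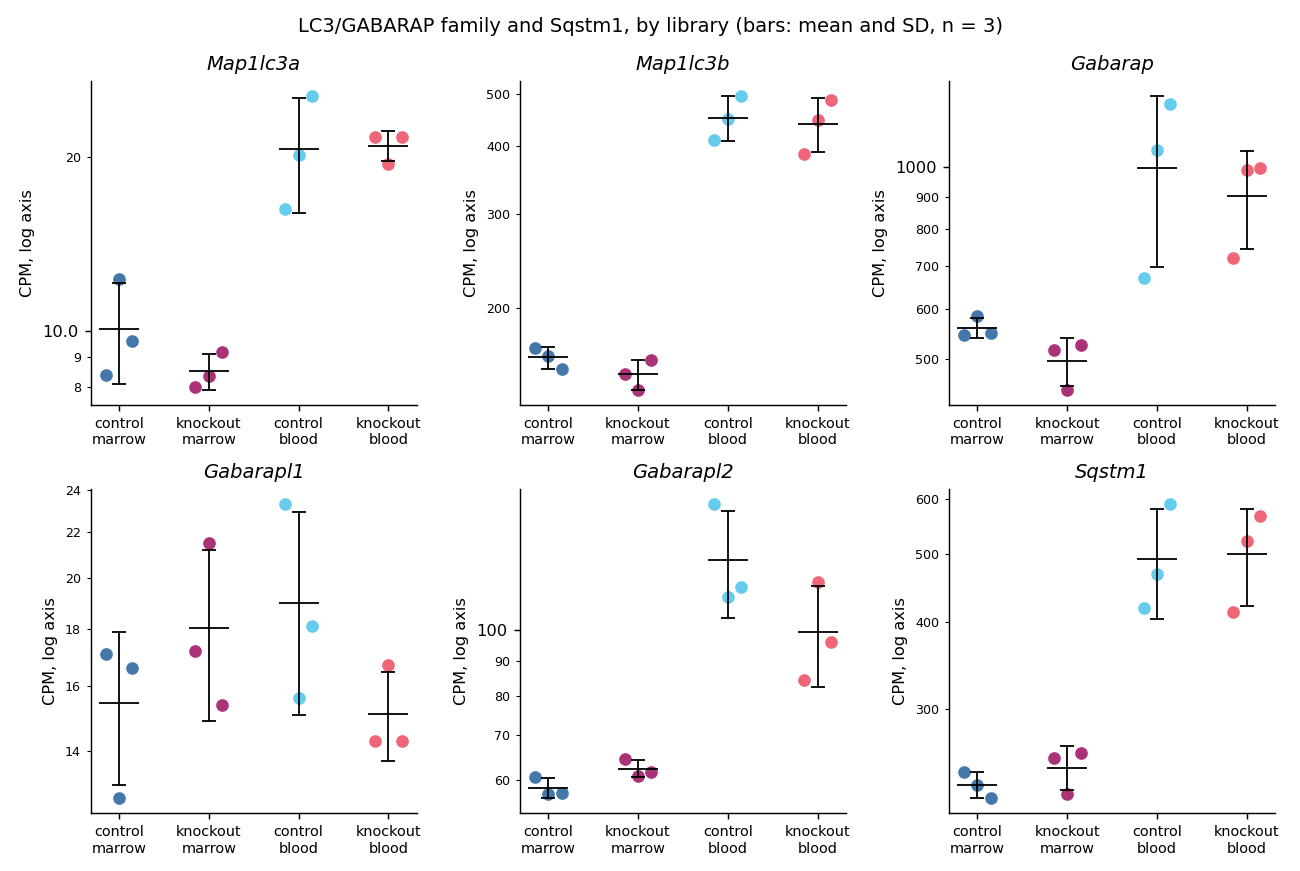
Level of the 5 LC3 and GABARAP genes and of Sqstm1 in each library, in CPM on a log axis, with 1 point per library and the mean and SD of 3 libraries per group. Blood lies above marrow in both genotypes for each gene except Gabarapl1, where the groups overlap.

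The nucleation genes included called increases and no called decrease. Of the 8, Becn1, Pik3c3, Pik3r4 and Uvrag were called higher in blood in both genotypes, and Atg14, Nrbf2, Rubcn and Ambra1 in neither. Uvrag, a subunit of the class III kinase that also acts in the endosomal route, stood at 52.5, 44.6 and 43.8 CPM in control marrow and 113, 105 and 108 in control blood (log2 fold change 1.23, SE 0.15, edgeR adjusted p = 0.000523). In the knockout it stood at 48.2, 53.6 and 53.8 in marrow and 111, 129 and 152 in blood (1.40, SE 0.14, adjusted p = 9.7e-05). Pik3c3, the catalytic subunit, and Pik3r4, its scaffold, had smaller values of 0.62 (SE 0.18) and 0.54 (SE 0.17) in control and 0.57 (SE 0.14) and 0.47 (SE 0.15) in the knockout. Becn1, at 0.75 (SE 0.16) and 0.33 (SE 0.12), shares 43.9% of its exon bases with an antisense gene.

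In 1 or both genotypes, the calls of these 3 genes were less stable than those of Uvrag, which held under each of the same alternatives. The call of Pik3c3 in the knockout held under each of them too, and that of Becn1 in control held with any 1 library left out. In the knockout, the call of Becn1 was lost without any 1 library other than blood replicate 3, at an edgeR adjusted p of 0.0634 to 0.181, and with DESeq2 on 6 libraries, edgeR on 12 libraries, library size alone, no filter and the replicate block. Pik3r4 was lost without any 1 library other than blood replicate 3 in both genotypes. The edgeR adjusted p was 0.0542 to 0.179 in control and 0.0508 to 0.134 in the knockout. It was also lost with no filter in both genotypes and, in the knockout, with library size alone and under the block. Pik3c3 was lost in control without blood replicate 3 or any 1 marrow library, at 0.0622 to 0.118, and library size alone ended all 3 calls in control.

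Among the cargo receptors, Sqstm1, Calcoco1 and Tax1bp1 were called higher in blood in both genotypes. Sqstm1, at chr11:50199366-50210827 on the minus strand, stood at 243, 233 and 223 CPM in control marrow and 419, 468 and 591 in control blood (log2 fold change 1.10, SE 0.17, edgeR adjusted p = 0.0017). The knockout values were 255, 226 and 259 in marrow and 413, 523 and 568 in blood (1.09, SE 0.15, adjusted p = 0.000464). Since p62 is itself degraded by autophagy, its protein is often read as a measure of that process, but these data hold its transcript alone.

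Calcoco1, a receptor for endoplasmic reticulum and Golgi, stood at 37.1, 33.7 and 33.5 CPM in control marrow and 77.5, 69.3 and 76.2 in control blood (1.11, SE 0.15, edgeR adjusted p = 0.000799), and the knockout gave 1.06 (SE 0.14, adjusted p = 0.000318). Optn went the other way, from 7.23, 9.74 and 9.07 in knockout marrow to 4.42, 1.66 and 1.44 in knockout blood (-1.72, SE 0.42, adjusted p = 0.0091). In control mice it was not called, at -0.65 (SE 0.57), with 7.1 CPM in control blood replicate 1 and 2.07 and 1.42 in the others. Ncoa4, the ferritin receptor, had a log2 fold change of -0.55 in the knockout, called lower (SE 0.14, adjusted p = 0.0121), a call lost without marrow replicate 2 or 3 at 0.0535 and 0.0553. That of Tax1bp1 was lost without marrow replicate 2 or 3 in control, at 0.0573 to 0.0605, and without marrow replicate 1 or 3 in the knockout, at 0.0563 to 0.0593, and Nbr1 and Tollip were called in neither genotype.

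In the mitophagy group, Pink1 and Bnip3 differed in opposite directions in both genotypes. Pink1, at the CPM given above, was higher in blood by 1.09 (SE 0.19, edgeR adjusted p = 0.00277) in control and by 0.98 (SE 0.12, adjusted p = 0.000281) in knockout mice. Bnip3, an outer membrane receptor that hypoxia induces, stood at 22.3, 16.8 and 19.1 CPM in control marrow and 10.1, 11.6 and 9.73 in control blood (-0.87, SE 0.20, adjusted p = 0.0095). Without control marrow replicate 1 the adjusted p was 0.0506. The knockout gave -0.90 (SE 0.20, adjusted p = 0.00544), and Fundc1, a further mitophagy receptor, was called in neither genotype.

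The conjugation genes split. Atg7 was higher in blood by 0.72 (SE 0.14, edgeR adjusted p = 0.0051) in control and 0.77 (SE 0.11, adjusted p = 0.000625) in knockout mice, while Atg4c, a protease that trims LC3, was the largest decrease after Atg9b. It stood at 6.73, 6.33 and 7.03 CPM in control marrow and 3.67, 1.98 and 1.61 in control blood (-1.45, SE 0.36, adjusted p = 0.0151), and at 7.95, 8.42 and 6.6 and 2.27, 2.11 and 1.29 in the knockout (-1.95, SE 0.29, adjusted p = 0.00078). In control the call was lost without blood replicate 2 or marrow replicate 1 or 3, at an adjusted p of 0.0507 to 0.0626.

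Of the other 3 proteases of that family, Atg4a was lower in knockout blood (-0.76, SE 0.17, edgeR adjusted p = 0.00541) and had -0.78 (SE 0.40, adjusted p = 0.167) in control, while Atg4b, with 0.37 (SE 0.16) and 0.13 (SE 0.12), and Atg4d, with -0.07 (SE 0.19) and -0.50 (SE 0.18), were not called. Atg3 was called higher in the knockout alone, at 0.39 (SE 0.12, adjusted p = 0.0255), a call that held only without knockout blood replicate 1 when libraries were left out in turn, with adjusted p of 0.0619 to 0.135 otherwise. Atg12, Atg16l1 and Atg10 were called in neither genotype, with 0.20 (SE 0.17), 0.31 (SE 0.18) and -0.80 (SE 0.31) in control and 0.36 (SE 0.15), -0.13 (SE 0.15) and -0.82 (SE 0.32) in the knockout. Every blood library of Atg10 lay below every marrow library all the same.

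Among the genes of membrane supply, Atg2a, which carries lipid to the growing membrane, rose from 38.9, 35.3 and 35.7 CPM to 83.9, 67.3 and 92 in control mice (1.16, SE 0.17, edgeR adjusted p = 0.00124) and by 0.96 (SE 0.12, adjusted p = 0.00032) in the knockout. Its paralog Atg2b had -0.02 (SE 0.28) and -0.22 (SE 0.16) and was not called. Wdr45, a binder of phosphoinositides, rose by 0.95 (SE 0.27, adjusted p = 0.0174) in the knockout, where leaving out any library other than knockout blood replicate 1 gave an adjusted p of 0.0509 to 0.0733.

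Atg9b had the largest decrease on the log2 scale, -2.07 (SE 0.70, edgeR adjusted p = 0.0469) in control and -2.26 (SE 0.82, adjusted p = 0.0471) in knockout mice. It rested on few reads, 125 and 137 over the marrow libraries and 19 and 21 over the blood libraries of control and knockout, and it had no count in 1 blood library. Both calls were lost without most single libraries, at adjusted p of 0.0762 to 0.167 in control and 0.0959 to 0.165 in the knockout.

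The remaining roles were small. Ulk1 was higher in blood by 0.83 (SE 0.20, edgeR adjusted p = 0.0126) in control and 0.59 (SE 0.17, adjusted p = 0.0175) in knockout mice, while Atg101, which stabilises the same kinase complex, was lower, with log2 fold changes of -0.67 (SE 0.22, adjusted p = 0.0415) and -0.59 (SE 0.13, adjusted p = 0.0061). In control, the call of Atg101 was lost without any 1 library other than blood replicate 2, at an adjusted p of 0.057 to 0.135, and that of Ulk1 without marrow replicate 2 or 3, at 0.0621 and 0.0638. In the knockout, that of Ulk1 was lost without marrow replicate 1 or 2 or blood replicate 2, at 0.0651 to 0.0861. Tecpr1, a tether of autophagosomes to lysosomes, rose from 14.2, 14.1 and 13 CPM to 34.6, 28.9 and 22.7 in control mice (1.08, SE 0.21, adjusted p = 0.00453) and from 14.2, 12.4 and 13.3 to 40.2, 24.4 and 19.2 in the knockout (1.14, SE 0.26, adjusted p = 0.00635). Stx17, the SNARE of the autophagosome, had -0.31 in both genotypes and was not called. Tfeb, the transcription factor of lysosomal and autophagy genes, was called in the knockout (0.91, SE 0.15, adjusted p = 0.00115) and had 0.55 (SE 0.20, adjusted p = 0.0661) in control, and Tfe3 had 0.19 (SE 0.15) and 0.11 (SE 0.15) and was not called.

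Members with higher levels per length tended to be those higher in blood. The median level was 12.8 RPKM for the 16 members called higher in control, 5.98 for the 34 not called and 4.02 for the 4 called lower. In the knockout these medians were 12.7, 4.14 and 4.17 RPKM for 25, 19 and 10 members. Across the 54 genes, Spearman's rho between the mean level in RPKM and the log2 fold change was 0.58 in control and 0.57 in knockout mice, beside 0.13 and 0.17 across all genes tested. These are descriptions across genes, which share the libraries and their depth and are not replicates, and the mean level includes the blood libraries.

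Beyond the members, 94 further genes of autophagy control were listed, of which 88 were tested in each comparison and 0 were called between genotypes in either tissue. Of the nutrient-sensing genes around mTORC1 and AMPK, 3 were higher and 4 lower of 34 in control blood, and 4 and 5 in knockout blood. Over all genes tested, 16.2% were called higher and 18% lower in control and 23.5% and 24.1% in knockout mice, and these shares stand beside each list that follows too. Ddit4, an inhibitor of mTORC1, had the lowest p between genotypes in marrow (log2 fold change 0.93, SE 0.21, edgeR adjusted p = 0.104) and was higher in blood by 3.17 (SE 0.34, adjusted p = 0.000247) in control and 3.00 (SE 0.32, adjusted p = 0.000125) in knockout mice. Castor1, an arginine sensor, was higher in blood by 1.97 (SE 0.29, edgeR adjusted p = 0.0012) in control and 1.65 (SE 0.23, adjusted p = 0.000573) in knockout mice. The next lowest p between genotypes were those of Sec62, a receptor for endoplasmic reticulum, at -0.44 (SE 0.11), and Pik3c2a, a lipid kinase, at 0.68 (SE 0.18), in marrow. In blood they were Atf4, a factor of the amino acid response, at 0.65 (SE 0.21), the survival gene Bcl2l1 at -0.69 (SE 0.24) and the SNARE Vti1b at 0.55 (SE 0.23).

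Of the tethering and fusion genes, 1 was higher and 3 lower of 19 in control blood, and 5 and 4 in knockout blood. Of the receptors for endoplasmic reticulum and other selective cargo, 0 of 16 were called in control and 5 higher and 3 lower in the knockout, and 0 of 16 passed the interaction or reached an unadjusted p under 0.05 in it. Regulators of Becn1 and phosphoinositides gave 3 higher and 1 lower of 13 in control and 2 and 3 in the knockout. Among them was Mcl1, higher by 1.09 (SE 0.24, edgeR adjusted p = 0.00848) in control and 1.69 (SE 0.18, adjusted p = 0.000109) in the knockout. The 6 related transcription factors gave 2 higher and 1 lower in each genotype. The lower one was Tfec, a relative of Tfeb, with the lowest p of these further genes between tissues. It had -3.65 (SE 0.37, edgeR adjusted p = 0.000194) in control and -3.85 (SE 0.39, adjusted p = 9.08e-05) in the knockout.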

How the data were processed

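The authors prepared stranded mRNA libraries, sequenced them as single-end reads, aligned them with HISAT2 2.2.1, counted them with featureCounts 2.0.1 and deposited raw counts per gene, without normalization, with an exon length per gene. Per the file headers the annotation was Ensembl release 92 on GRCm38, with no option for strand, whereas the Methods name GRCm39. Neither multi-mapping reads nor reads on overlapping genes were set to be counted. Of the members, 35 share no exon base with another gene and 19 do.

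The counts were fitted per comparison on 6 libraries with edgeR 4.0.16 in R 4.3.3 (TMM, quasi-likelihood test, filter on low counts with a minimum count of 10 and total of 15, prior count 0.125 for fold changes), and Benjamini-Hochberg adjustment ran over all genes tested. The interaction used all 12 libraries. CPM were computed with TMM factors over 12 libraries, RPKM with the deposited exon length. Scripts were tested on simulated data. The members and lists were chosen with earlier results of these data known. Named were Atg5, its partners and the LC3 and GABARAP genes, called members of largest change up to 12 per comparison, or 3 of lowest p where fewer than 3 were called, members that separate genotypes in both tissues, the highest and lowest per role, and 3 of lowest p in the other lists. The remaining members were named to complete a role or a count, with their values known. Precision is limited by 3 libraries per group. The series description names 3 mice per genotype but not which library came from which, so p-values measure the spread between these libraries. Libraries of the same number deviated together in blood between genotypes (correlations 0.568, 0.262 and 0.35), and not in marrow or between tissues. Unlike numbers in blood gave -0.456 to 0.143. Deviations were taken from group means, so these values depend on each other, and whether the numbers mark pairs was not shown. Alternatives were DESeq2 1.42.0 on 6 or 12 libraries, edgeR on 12, limma-voom (limma 3.58.1), other scalings and filters, the replicate block, red cell genes left out, the study's log2 threshold of 2 and leaving out each library. The study had used DESeq2 1.32.0. Symbols came from GENCODE M39 by identifier, for 49668 identifiers. The red cell marker Ahsp was not analysed here.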

Additional observations from a re-analysis of the deposited data

Results flagged for a closer look

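Wipi1 and Epg5 drew attention because in marrow all 3 Atg5-knockout libraries exceeded all 3 controls, while in blood all 3 fell short of them. How many of all genes have this arrangement was not counted. For Wipi1 the log2 fold change was 0.11 (SE 0.10) in marrow and -0.40 (SE 0.18) in blood, a difference of -0.56 (SE 0.18, 95% interval -0.95 to -0.16) in the edgeR interaction over 12 libraries. For Epg5 it was 0.18 (SE 0.10) and -0.36 (SE 0.19), a difference of -0.59 (SE 0.19, 95% interval -0.99 to -0.18). Neither passed after adjustment over all genes (adjusted p = 0.87 and 0.866), and among 14712 genes the interaction called 0, with 740 at an unadjusted p under 0.05.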

How the results depend on the processing

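Between genotypes, 0 members were called in blood under every alternative, the replicate block included, and in marrow the sole call was Atg5 as 1 member lower with DESeq2 on 6 libraries and without the filter. In control mice, 16 higher and 4 lower became 9 and 5 with library size alone, 0 and 1 at the study's log2 threshold, and 10 to 20 and 0 to 5 with 1 library left out; without the library rich in red cell RNA they were 20 and 5. Leaving out marrow replicate 3 gave 10 higher, and the lower count moved to 2, 2, 0, 2 and 1 without blood replicate 2 or 3 or marrow replicate 1, 2 or 3. In knockout mice, 25 and 10 became 14 and 12 with library size alone, 0 and 1 at the log2 threshold, and 14 to 24 and 5 to 12 with 1 library left out, where marrow replicates 1 and 2 gave 14 and 15 higher and marrow replicates 2 and 3 gave 5 lower. The replicate block gave 18 and 3 in control and 19 and 10 in knockout mice, where the numbers were not found to pair libraries, and it changed no count of members between genotypes. Among the members named, signs turned in values that were not called. In marrow Atg16l1 (0.00) became 0.01 with DESeq2 and 0.03 with edgeR on 12 libraries and 0.03 with library size alone, and ran from -0.06 to 0.04 with 1 library left out, and Atg10 from -0.03 to 0.20. In blood, library size alone gave 0.06 for Atg5 and 0.08 for Map1lc3b, and with 1 library left out Atg5 ran from -0.12 to 0.16, Atg10 from -0.04 to 0.35, Map1lc3a from -0.09 to 0.23, Map1lc3b from -0.10 to 0.07 and Gabarap from -0.32 to 0.09. Between tissues in control, library size alone took Atg5 from 0.17 to -0.14, Atg12 from 0.20 to -0.11 and Atg16l1 from 0.31 to 0.00, and Atg3 (-0.02) became 0.00 with DESeq2 on 6 libraries, 0.02 with DESeq2-type factors, 0.00 without red cell genes and -0.15 to 0.10 with 1 library left out. The causes were not tested. Depth limits Atg9b most, which had 0 counts in its lowest library.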
